A study of Mus musculus with 3 samples.

Results

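The T cell receptor alpha and beta loci were described through their variable, diversity and joining segments in mouse T-helper 1 (Th1) cells. Every gene whose symbol begins with Trav, Traj, Trbv, Trbd or Trbj was taken, which gave 239 of the 50600 genes in the count tables. Of these, 128 were Trav, 60 Traj, 35 Trbv, 2 Trbd and 14 Trbj. Th1 cells are helper T cells that secrete interferon-gamma. The series holds 1 group of 3 libraries, biological replicates 1, 2 and 3, of C57BL/6NJ primary cells with a linked protocol for differentiating CD4+ T cells. The file headers name a time point of 2 hours. The labels give no genotype change, no added agent, no age and no sex. Each library has its own biosample and all share 1 donor entry, so separate animals cannot be assumed. Spread between the libraries may therefore be partly technical. With a single group, the comparisons were between segments, between stretches of a locus and between replicates.

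A developing T cell builds its receptor genes by cutting and joining DNA. One variable (V) and one joining (J) segment make the alpha chain, and the beta chain also takes a diversity (D) segment. The joined exon is spliced in RNA to a constant region, Trac for alpha and Trbc1 or Trbc2 for beta. Alpha loci can rearrange repeatedly, each time replacing the joined pair with a V farther upstream and a J farther downstream. The mouse Trav array contains stretches that were duplicated in evolution, and their copies carry d or n in the symbol.

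Total counts were 4442901, 3123869 and 2950658 in replicates 1, 2 and 3. The segments carried 1774, 1054 and 779 of them, or 0.0334% ± 0.0068 of a library (SD, n = 3). Each count is 1 read pair assigned to 1 gene. The counting command listed no option for pairs that map to several places or touch several genes, and by the counter's default pairs of the first kind are not counted and pairs that touch several genes may not be. How many pairs that reached both a V and a J segment, or both a J segment and a constant region, were left out was not tested. Of the 239 segments 175 had at least 1 count, against 37.7% of all genes. The cells carried the RNA of alpha-beta CD4 T cells. All 4 CD3 chain genes had counts, and Cd4 had 1234, 636 and 659 counts against 2, 1 and 0 for Cd8a. Cd8b1, the other CD8 chain gene, had 34, 16 and 10. None of 345 immunoglobulin segments listed had a count in any library, a limit of 0.285 CPM (counts scaled to library totals) over the summed libraries. Ms4a1, Cd79b and Cd22 of B cells were at 0, while Ighm had 109, 34 and 44 counts. Of the macrophage genes, Lyz2 and Cd14 were at 0 and Adgre1 had a single count.

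The sequences below are the 3′ ends of V segments and the whole of short segments, from GENCODE M21 transcripts on GRCm38, the assembly of the files, 5′ to 3′. The first set shows Trav14n-3 (chr14:53370077-53370575, plus strand), the segment with most Trav counts, and its relatives Trav14-3 (chr14:53763173-53763694) and Trav14d-3-dv8 (chr14:53078452-53079045). Capitals mark bases that differ from Trav14n-3, which number 3 and 4 of the last 90.
Trav14n-3: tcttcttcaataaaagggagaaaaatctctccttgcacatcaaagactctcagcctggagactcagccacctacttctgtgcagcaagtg
Trav14-3: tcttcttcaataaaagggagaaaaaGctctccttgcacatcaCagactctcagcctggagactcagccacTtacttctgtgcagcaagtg
Trav14d-3-dv8: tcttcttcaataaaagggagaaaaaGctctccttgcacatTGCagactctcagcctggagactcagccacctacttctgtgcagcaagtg
The second set shows copies with no differing base. Trav12n-2 (chr14:53226773-53227400) and Trav12d-2 (chr14:52915799-52916426) are the same in these 90 bases, and Trav12-2 (chr14:53616315-53616914) differs from them at the 2 capitals.
Trav12n-2: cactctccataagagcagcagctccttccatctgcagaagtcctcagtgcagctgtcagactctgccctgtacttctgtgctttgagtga
Trav12d-2: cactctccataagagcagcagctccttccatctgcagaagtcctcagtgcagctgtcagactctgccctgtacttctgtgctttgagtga
Trav12-2: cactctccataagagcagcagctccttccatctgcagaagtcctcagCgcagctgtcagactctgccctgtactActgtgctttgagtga
The third set holds the leading beta family, Trbv13-2 (chr6:41121396-41121832), Trbv13-1 (chr6:41116007-41116468) and Trbv13-3 (chr6:41130147-41130585), with capitals where a base differs from Trbv13-2. The inverted segment Trbv31 (chr6:41557691-41558452, minus strand) stands last, with no capitals.
Trbv13-2: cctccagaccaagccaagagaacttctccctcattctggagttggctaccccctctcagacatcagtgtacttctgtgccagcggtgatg
Trbv13-1: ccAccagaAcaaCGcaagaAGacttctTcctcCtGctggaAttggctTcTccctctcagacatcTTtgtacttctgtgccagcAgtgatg
Trbv13-3: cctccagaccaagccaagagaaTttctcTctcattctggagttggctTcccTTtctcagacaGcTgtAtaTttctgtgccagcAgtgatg
Trbv31: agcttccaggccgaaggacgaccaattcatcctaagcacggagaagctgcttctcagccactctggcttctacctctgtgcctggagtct
The joining segments with most counts, the pseudogene Traj14 and both D segments follow. Capitals mark the codons for the phenylalanine-glycine-any-glycine motif typical of J segments, found as TTTGG or TTCGG, 4 free bases and GG on the segment's own strand, and printed with the base after them.
Traj6: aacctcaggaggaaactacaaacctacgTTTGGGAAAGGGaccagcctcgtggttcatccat
Traj2: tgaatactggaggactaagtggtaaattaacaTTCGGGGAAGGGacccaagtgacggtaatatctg
Traj3: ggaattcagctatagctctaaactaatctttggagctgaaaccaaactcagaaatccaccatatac
Traj19: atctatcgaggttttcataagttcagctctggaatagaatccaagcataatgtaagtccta
Traj14: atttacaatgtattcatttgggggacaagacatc
Trbj1-4: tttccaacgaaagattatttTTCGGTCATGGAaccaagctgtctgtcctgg
Trbj1-3: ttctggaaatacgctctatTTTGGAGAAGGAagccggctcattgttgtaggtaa
Trbd1: gggacagggggc
Trbd2: gggactgggggggc
Traj6 lies at chr14:54212688-54212749, Traj2 at chr14:54217836-54217901, Traj3 at chr14:54217292-54217357, Traj19 at chr14:54200386-54200446 and Traj14 at chr14:54205111-54205144. Trbj1-4 lies at chr6:41534811-41534861, Trbj1-3 at chr6:41534323-41534376, Trbd1 at chr6:41533201-41533212 and Trbd2 at chr6:41542163-41542176. This letter pattern, searched without a check of the reading frame, was present in 42 of 51 Traj segments annotated as genes. It was present in 1 of 9 annotated as pseudogenes. Among Trbj segments it was present in 11 of 13 genes and not in the pseudogene Trbj2-6. Traj3 and Traj19, both annotated as genes, lacked these letters and were still among the 8 Traj segments with the highest shares.

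In the Trav array, V segments of the alpha chain, 79 of 128 had counts, with 746, 411 and 336 counts in replicates 1, 2 and 3. Segments annotated as genes had counts in 69 of 108 cases and pseudogenes in 10 of 20, and pseudogenes took 3.64% ± 0.87 of Trav counts (SD, n = 3). Trav14n-3 had 57, 31 and 15 counts, a share of 6.55% ± 1.81 and a level of 47.5 ± 23.9 TPM (SD, n = 3). TPM, a length-corrected unit that sums to the same total in each library, divides each count by the segment's exon length. Trav14-3 had 36, 22 and 20 counts, or 5.38% ± 0.56 of Trav counts. Trav9-2 had 27, 19 and 20 counts, 4.73% ± 1.17 of Trav counts. Trav14-3 and Trav14n-3 held overlapping shares across the libraries, so their order is not resolved. Trav4-4-dv10 had 46, 9 and 12 counts. It is one of 10 segments whose dv names mark use by alpha and delta chains alike, and these 10 together took 11.0% ± 1.66 of Trav counts. The other segments of the leading 12 were Trav16n, Trav13-1, Trav14-2, Trav14-1, Trav8-1, Trav3-3, Trav10 and Trav8d-1, with mean shares from 2.26% to 3.20%. The 10 leading segments together took 37.9% ± 2.82 of Trav counts. Over the segments annotated as genes, Shannon evenness, where 1 would be equal counts in every segment, was 0.813 ± 0.0081 (SD, n = 3). Of these 108 segments, 36 had no sequence distinct from other genes by the measure described below, and 34 of them had no count. Evenness therefore describes the counts and does not separate use from shared sequence. The pseudogene with most Trav counts, Trav8-2, had 9, 7 and 2.

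By family, Trav14 was first in each library with 157, 85 and 56 counts, or 19.5% ± 2.43 of Trav counts over its 9 members. Trav6 followed with 75, 48 and 41 counts over 15 members, a share of 11.3% ± 1.12. Trav7 had 109, 35 and 25 counts over 13 members, a share of 10.2% ± 3.87, and was second in replicate 1 only. The gap between Trav14 and each of these families exceeded the spread between libraries, while Trav6 and Trav7 changed places between libraries. These shares are totals over the members, so they do not compare families per segment. Families with 1 member had mean shares from 0.0447% for the pseudogene Trav20 to 1.81% for Trav21. Some larger families were as low, with 0.781% for the 9 members of Trav15 and 0.0992% for the 3 of Trav11. Trav12, with 10 members, had 17, 13 and 11 counts, and the median share of distinct sequence among its members was 0.164%.

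How much of a Trav segment could be told from other genes differed greatly along the locus. Distinct sequence was measured as the percentage of 50-base windows of its transcripts found in no other gene's transcripts, a measure added after the counts had been seen. Of 128 Trav segments 105 had a copy at 95% identity or more over the last 250 bases, and 43 had an identical copy. Of the 40 Trav segments with no distinct window, 38 had no count and the other two, Trav3d-3 and Trav7n-6, had 1 each. Among segments with above 0% to 25% distinct windows 13 of 19 had counts, from above 25% to 75% 40 of 43, and above 75% 24 of 26. Among segments annotated as genes, all 19 with more than 75% distinct windows had counts, with a median of 14 summed over the libraries. Across the 108 annotated as genes, Spearman's rho between the distinct percentage and the summed counts was 0.74. These points share libraries and families, so the value is a description. Of the 49 Trav segments without counts, 44 had d or n names. Trav12n-2 and Trav12d-2, identical at their printed ends, had 0 counts in every library, while Trav12-2, with 70.8% distinct windows, had 6 in each.

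**Figure D1:**
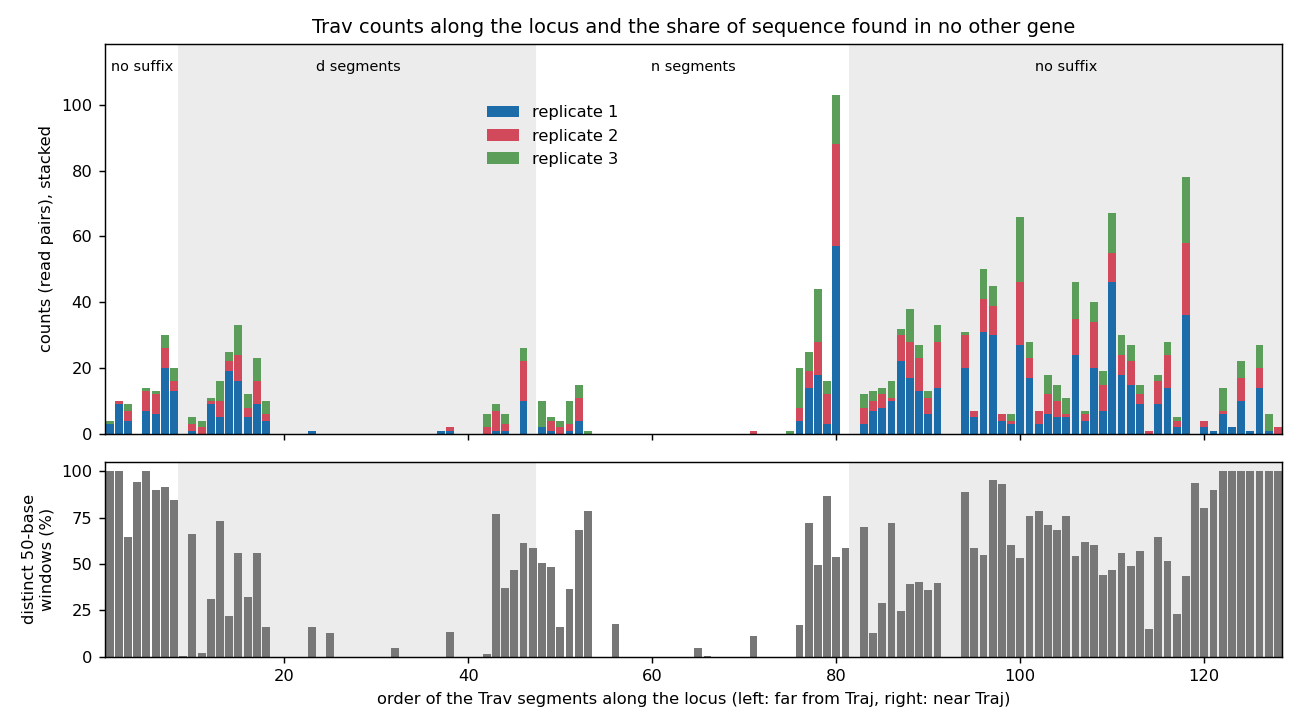
Counts of the 128 Trav segments in locus order (upper panel, read pairs stacked by library) and the percentage of their 50-base windows found in no other gene (lower panel), with shading that separates the blocks of d-named, n-named and unsuffixed segments. Long runs of d and n segments with no distinct window have no bar in either panel, and Trav14n-3 is the tallest bar at 103 summed counts.

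**Figure D2:**
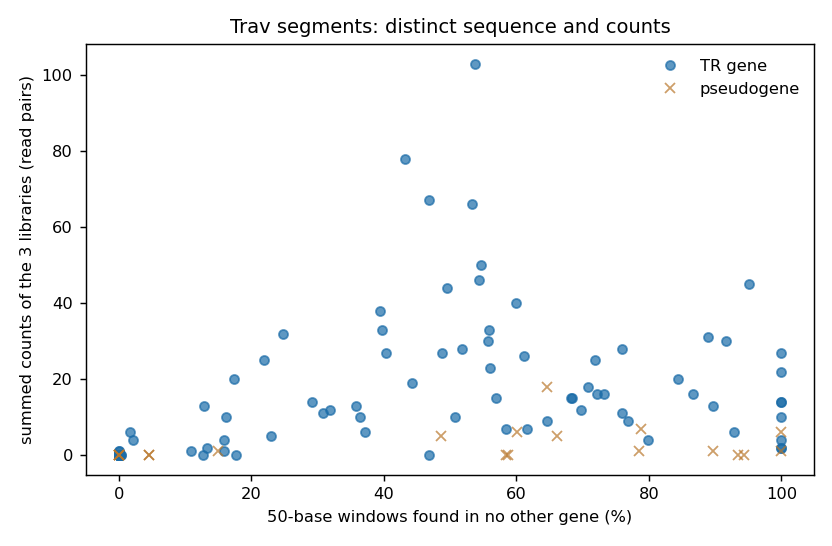
Each point is 1 Trav segment, by its percentage of distinct 50-base windows (horizontal) and its counts summed over the 3 libraries (vertical, read pairs), with genes as circles and pseudogenes as crosses. At 0% the highest summed count is 1, and the highest of all, 103, lies at 53.8%.

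Position along the Trav array was read against this. The 64 segments farthest from the J segments had 153, 95 and 87 counts, and the 64 nearest had 593, 316 and 249. The log2 ratio of distal to proximal counts was -1.74 ± 0.22 (SD, n = 3), and the proximal segments were ahead in 3 of 3 libraries. An exact two-sided sign-flip permutation test over the libraries gave p = 0.25 for each of the 4 position ratios described here, also after Benjamini-Hochberg adjustment over the 4. That is the smallest p that 3 libraries allow. The distal set had a median of 3.38% distinct windows against 54.1% in the proximal set. Without the 105 near-identical copies, 23 segments were left. Split anew into the 11 farthest and 12 nearest, they had 83, 46 and 19 counts against 51, 29 and 26, a log2 ratio of 0.31 ± 0.66 in the opposite direction. With the original dividing point, 7 distal segments had 41, 20 and 8 counts and 16 proximal ones 93, 55 and 37. That ratio was -1.62 ± 0.53, or -0.42 ± 0.53 as counts per segment. The mean ratio thus changed sign where the copies were left out and the split was redrawn, and not where the split was kept. The redrawn ratio was smaller than its spread between libraries, and in replicate 3 the nearest set stayed ahead. Counts per segment differed by less than the spread between libraries.

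By block, the 8 unsuffixed segments at the upstream end took 6.09% ± 2.22 of Trav counts, the 39 d segments 13.3% ± 2.04, the 34 n segments 18.3% ± 4.49 and the 47 unsuffixed segments near the J segments 62.3% ± 4.29 (SD, n = 3). Counts were found in 7, 16, 13 and 43 segments of these blocks. The median percentage of distinct windows was 93.0%, 0.347%, 0% and 60% in the same order. At the far upstream end, Trav1 (chr14:52427928-52428876), whose protein is used by mucosal-associated invariant T cells, had 3, 0 and 1 counts. At the J-near end, Trav23 (chr14:53977153-53977678) had 0, 2 and 0. Both were fully distinct, so the low values at these ends were not accompanied by shared sequence. Trav11 and Trav11d, of the invariant receptor of natural killer T cells, had 0 counts, but they hold no distinct window and cannot be told apart. Zbtb16 and Klrb1c, markers of those cells, also had 0 counts in every library.

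In the Traj array, J segments of the alpha chain, counts were 160, 191 and 98, spread over 55 of 60 segments. Genes had counts in 49 of 51 cases and pseudogenes in 6 of 9. No Traj segment had a near-identical copy. Traj6 had 15, 7 and 13 counts, or 8.77% ± 4.83 of Traj counts. Traj2 had 14, 12 and 7 counts, a share of 7.39% ± 1.25, and Traj3 had 14, 8 and 4. Traj19 had 5, 18 and 4 counts, so that replicate 2 held most of them. Traj9, Traj7 and Traj13 had 24, 20 and 19 counts over the summed libraries. The shares of these leaders overlapped between segments, and no order among them is resolved at this depth. A pair of segments annotated as pseudogenes carried counts in every library, Traj14 with 2, 8 and 3 and Traj1, the last before Trac, with 4, 3 and 4. Traj18, of natural killer T cells, had 0, 5 and 1 counts, and Traj33, of mucosal-associated invariant T cells, 0, 1 and 0.

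Counts were higher towards the constant region along the Traj array. The 30 segments nearest the V segments had 38, 38 and 27 counts, and the 30 nearest Trac had 122, 153 and 71. The Trac-near set held 76.2% (exact 95% interval 68.9 to 82.6), 80.1% (73.7 to 85.5) and 72.4% (62.5 to 81.0) of Traj counts. The log2 ratio of V-near to Trac-near counts was -1.70 ± 0.31 (SD, n = 3; p = 0.25 in the same exact permutation test). Comparing only the outermost 20 segments on each side it was -2.67 ± 0.23, and over segments annotated as genes only it was -1.48 ± 0.29. In 5 consecutive groups of 12 segments, from the V side to the Trac side, the mean shares were 4.05% ± 0.87, 12.5% ± 5.37, 14.1% ± 3.34, 25.3% ± 7.29 and 44.1% ± 5.76. The first and last groups did not overlap with any other group in any library. The ranges of the second group crossed those of the third and the fourth. All 5 Traj segments without counts, Traj61, Traj60, Traj59, Traj56 and Traj51, lay in the first group. Of these, Traj61, Traj60 and Traj51 are annotated as pseudogenes, and 7 of the 12 segments of that group are annotated as genes. Across the 60 segments, Spearman's rho between order and counts was 0.56, 0.65 and 0.50 in replicates 1, 2 and 3, as a description over segments that share libraries. Traj61 lies 65.5 kb and Traj1 1.71 kb upstream of Trac. Whether these pairs came from joined, unspliced or unrearranged transcripts was not tested.

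**Figure D3:**
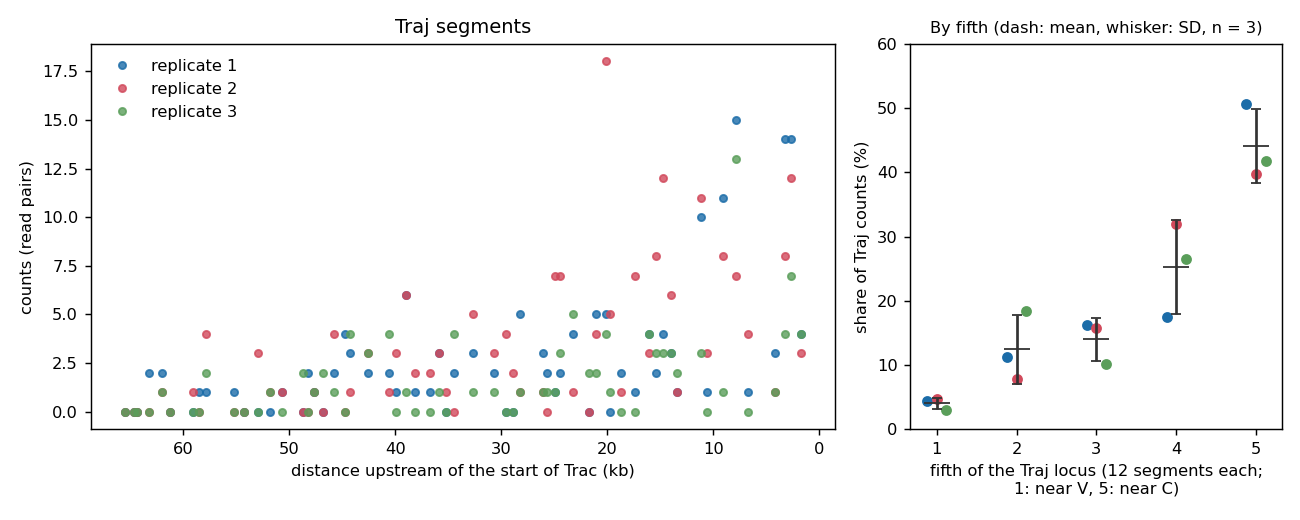
Left, counts (read pairs) of each Traj segment in each library by its distance upstream of Trac in kb. Right, the share of Traj counts (%) in 5 consecutive groups of 12 segments, with points for libraries and the mean and SD (n = 3), from 4.05% near the V segments to 44.1% near Trac.

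In the Trbv array, V segments of the beta chain, all 22 annotated as genes had counts and 3 of 13 pseudogenes did. The 10 segments at 0 were all pseudogenes. Totals were 745, 362 and 280 counts, of which pseudogenes took 0.756% ± 0.376, and the pseudogene with most, Trbv24, had 2, 3 and 1. No Trbv gene had a near-identical copy, the closest pair reaching 91.2% identity, and the median percentage of distinct windows was 100. Trbv4 and Trbv5, at 27.9% and 22.6% distinct windows, overlap a noncoding gene on their own strand, and had 11 and 9 summed counts. Of the pseudogenes at 0, Trbv8 and Trbv10 also overlap another gene on their own strand, and Trbv8 had 0% distinct windows.

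Trbv13-2 had 95, 43 and 39 counts, a share of 12.9% ± 1.03 (SD, n = 3) and a level of 87.6 ± 34.7 TPM. It was the highest Trbv segment in each library by counts. Trbv13-1 had 71, 34 and 37 counts, a share of 10.7% ± 2.17 and 65.9 ± 20.3 TPM. Trbv13-3 had 50, 20 and 22 counts, a share of 6.70% ± 1.17 and 45.6 ± 19.0 TPM. The family of 3 thus held 30.3% ± 4.25 of Trbv counts. Trbv31, which lies inverted and downstream of Trbc2, had 56, 39 and 21 counts, a share of 8.60% ± 1.89 and 46.8 ± 16.0 TPM. Trbv2 had 48, 30 and 31 counts, also a share of 8.60% ± 2.33, but 33.4 ± 5.35 TPM over an exon length of 560 bases against 418 for Trbv31. Trbv15, Trbv3, Trbv29, Trbv19 and Trbv26 completed the leading 10, with mean shares from 4.91% to 8.04%. Apart from Trbv26, their shares overlapped with those of Trbv31 and Trbv2 across libraries. The leading 10 together held 80.5% ± 0.95 of Trbv counts. Trbv21 was lowest among the genes with 1 count in replicate 1 and 0 in the others, and Trbv30 had 3, 1 and 0. Evenness over the 22 genes was 0.873 ± 0.0087. Trbv1, the most upstream, had 46, 11 and 5 counts, so replicate 1 held most of them.

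The 17 Trbv segments of the plus strand farthest from the D segments had 411, 182 and 179 counts, and the 17 nearest had 278, 141 and 80, with Trbv31 set apart. The log2 ratio of distal to proximal was 0.70 ± 0.41 (SD, n = 3; p = 0.25, exact permutation test), with the distal set ahead in 3 of 3 libraries. The Trbv13 family lies in the distal set and held 216, 97 and 98 of its counts. With the counts of this family taken off, the distal set falls behind in replicates 1 and 2 and is about level in replicate 3. The lead of the distal set is therefore not a trait of its segments in general. The log2 ratio without this family was not computed. The ratio was 0.38 ± 0.41 with Trbv31 counted with the proximal set and 0.39 ± 0.44 for the outermost parts of the array alone.

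**Figure D4:**
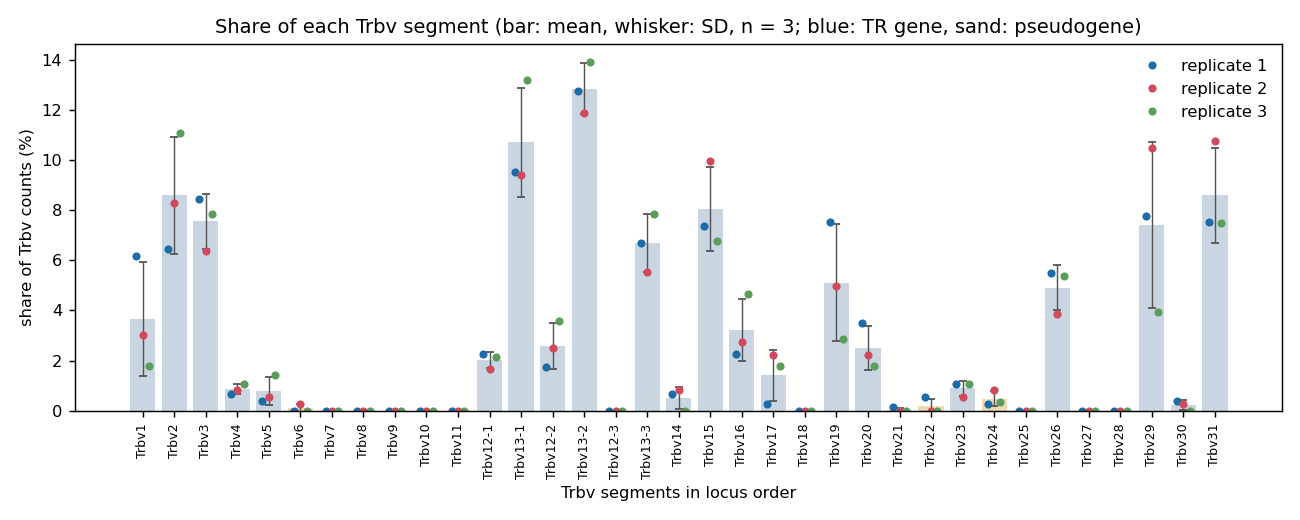
Share of Trbv counts (%) of each of the 35 Trbv segments in locus order, with bars for the mean, whiskers for the SD (n = 3) and points for the libraries. Trbv13-2 is the highest bar at 12.9%, and the 10 segments at 0 are pseudogenes.

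Among the short segments next to the beta constant regions, all 14 Trbj segments had counts in every library, with totals of 114, 73 and 62. The 7 Trbj1 segments, upstream of Trbc1, held 58.8% (exact 95% interval 49.2 to 67.9), 67.1% (55.1 to 77.7) and 54.8% (41.7 to 67.5) of them. The log2 ratio of Trbj2 to Trbj1 counts was -0.61 ± 0.38 (SD, n = 3; p = 0.25, exact permutation test), and in replicates 1 and 3 the interval included equal shares. Trbj1-4 had 18, 16 and 5 counts, Trbj1-3 14, 12 and 5, Trbj2-1 15, 6 and 9 and Trbj2-7 9, 6 and 8. Trbj1-1, first in the locus, had 8, 2 and 5. The pseudogene Trbj2-6 had 4, 3 and 2. Trbd1 had 4, 12 and 0 counts and Trbd2 5, 5 and 3, from exons of 12 and 14 bases. Trbc1 held 54.0% (51.0 to 57.1), 43.6% (37.9 to 49.6) and 52.8% (47.5 to 58.0) of the counts of both beta constant regions, whose coding sequences are near-identical.

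The balance of V, J and constant region counts differed between replicates. Traj took 17.7% (15.2 to 20.3), 31.7% (28.0 to 35.6) and 22.6% (18.7 to 26.8) of Trav and Traj counts together, highest in replicate 2 without overlap of its interval. Trav took 20.4% (19.1 to 21.8), 30.7% (28.3 to 33.3) and 22.2% (20.1 to 24.4) of Trav and Trac counts. Trbv took 41.1% (38.9 to 43.4), 55.4% (51.5 to 59.3) and 43.6% (39.7 to 47.5) of Trbv and Trbc counts. Replicate 2 thus stood apart in these 3 shares. Trac had 2909, 926 and 1178 counts in replicates 1, 2 and 3, from libraries of unlike totals. In TPM it stood at 1422, 528 and 742, lowest in replicate 2, but replicate 1 lay farthest from the others. The share of Trbj among Trbv and Trbj was 13.3% (11.1 to 15.7), 16.8% (13.4 to 20.6) and 18.1% (14.2 to 22.6), with overlapping intervals. These intervals are exact binomial ones and cover counting error only.

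**Figure D5:**
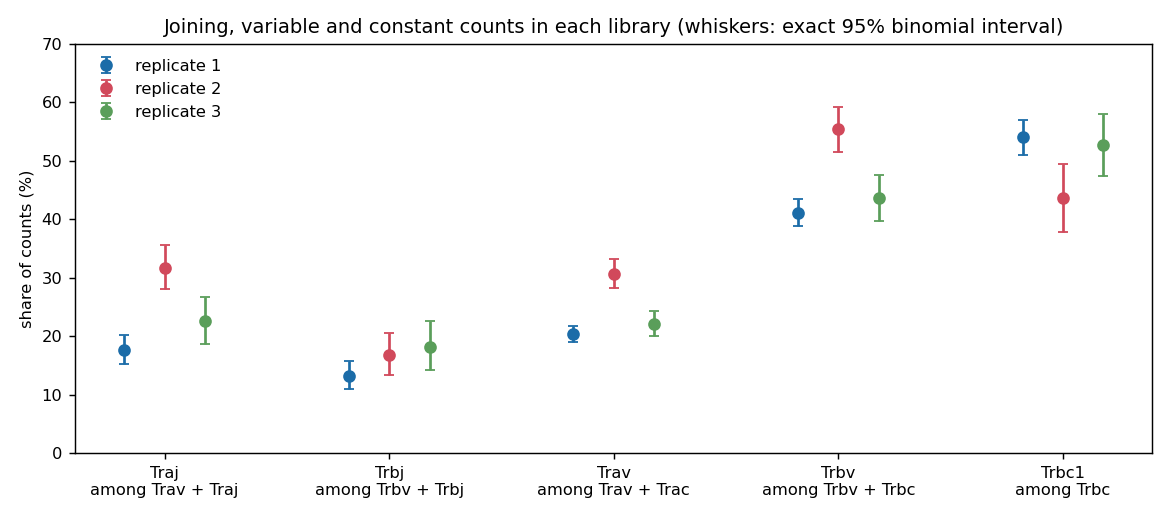
Shares of counts (%) between segment classes and constant regions in replicates 1, 2 and 3, with exact 95% binomial intervals. Replicate 2 stands above the others for Traj among Trav and Traj (31.7%), Trav among Trav and Trac (30.7%) and Trbv among Trbv and Trbc (55.4%).

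Within the segments, counts of pairs of libraries followed each other closely for V segments, as a description across segments. Spearman's rho was 0.82 to 0.89 over 108 Trav genes and 0.84 to 0.92 over 22 Trbv genes. It was 0.33 to 0.54 over 51 Traj genes and 0.58 to 0.63 over 13 Trbj genes, which had far fewer counts. Of the 108 Trav genes 39 had 0 counts in all 3 libraries, against 2 of the 51 Traj genes. These shared zeros enter rho, and it was not computed without them. Across all genes that passed the low-count filter of edgeR, a chi-square test of counting noise called 59.6% of 9469 at an adjusted p of 0.05. Of the members 16 were tested and Trbv29 was called, with 58, 38 and 11 counts (Benjamini-Hochberg adjusted p = 0.0025). Without replicate 2 this test called 3 of 23 members tested, against 42.4% of 10139 genes, and without replicate 3 it called 2 of 30, against 47.3% of 10185 genes. Without the low-count filter it called 18 of 175 members, against 35.7% of 19067 genes. edgeR's test against the dispersion trend called 0.253% of 9469 genes and none of these 16, of which 0 had an unadjusted p under 0.05. DESeq2 marked 0 members as dispersion outliers. The filter left 16 of 239 members in the test.

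Among genes of V(D)J recombination, 10 of 12 had counts. Rag1 and Rag2, the recombinase itself, had 0 counts in every library, where Rag2 overlaps a gene of the other strand. Dntt, which adds bases at the joins, had 9, 11 and 11 counts or 2.58 ± 0.58 TPM (SD, n = 3). The joining factor Xrcc6, which also overlaps a gene of the other strand, stood at 43.4 ± 7.77 TPM. The DNA-bending protein Hmgb2, without such overlap, stood at 26.2 ± 2.57 TPM. Delta chain segments lie within the alpha locus. Of 15 gamma-delta segment symbols matched, all in the delta locus, 5 had counts, with 12, 16 and 27 in all, and Trdc had 17, 16 and 18 while opposed by Trdv5 on the other strand. Of 10 gamma chain genes 3 had a single count each. Trac stood at 897 ± 467 TPM against 2.32 ± 0.38 for Trdc.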

How the data were processed

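RNA of 3 libraries of Th1 cells was measured, 1 group with no second condition. The deposited values are raw counts. Per the file headers, read pairs were counted over exons with featureCounts 1.4.6-p4, GENCODE vM13 gene models and strand setting 1, after a step named star2. No option for pairs mapping to several places or genes was listed per the file headers. The build is mm10 per the labels. Exon lengths are as deposited. The assay is labelled total RNA-seq but its linked protocol is for poly(A)+ RNA. Whether strand setting 1 matches the library's own strand was not tested; genes whose exons overlap the other strand's held 55.1%, 69.1% and 67.3% of counts, but 2 of 239 members were among them, Trav13n-3 and Trav13d-3.

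Symbols and sequences came from GENCODE M21 on the same assembly, which named 99.56% of gene identifiers. TPM was computed here from counts and exon length, over all genes. Shares are counts over the class total. Intervals are exact Clopper-Pearson at 95%, and a count of 0 was read as up to 3 counts. Replicate spread was tested on all genes with edgeR 4.0.16 (TMM, intercept-only, filterByExpr at a minimum count of 10, chi-square with 2 degrees of freedom) and with DESeq2 1.42.0 as an alternative, under R 4.3.3. Both tests were run on simulated counts, but their power for the segments was not measured. Identity was computed with edlib 1.3.9.post1.

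Segments were named by a rule: the leading 12 Trav, 10 Trbv, 8 Traj and 4 Trbj by mean share, all Trbd, locus ends, the pseudogene of highest count per class, called segments, Trbv31 and invariant receptor segments. Others, such as Trav12-2, Trbv21 and the segments at 0, were chosen after their values were seen. Members and lists were chosen with earlier results of these data known, and windows, blocks, groups of 12, class ratios and the gamma chain list were added after seeing the counts.

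1 gene of the B cell list is not reported here.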

Additional observations from a re-analysis of the deposited data

How the results depend on the processing

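The Traj, Trbv and Trbj position ratios kept their direction under counts per exon base, functional segments only and, for Traj and Trbv, the outer parts of each locus in place of the whole. The Trav ratio of -1.74 became 0.31 ± 0.66 (SD, n = 3) without near-identical copies when the remaining segments were split anew. It stayed negative, at -1.62 and -0.42 per segment, when the split was kept, 2 alternatives added after seeing the data. Leaving out 1 library gave -1.84 to -1.63 for Trav, -1.85 to -1.54 for Traj, 0.47 to 0.86 for Trbv and -0.77 to -0.40 for Trbj. Summing copies moved Trav evenness from 0.813 to 0.829. Leaving out copies removed no Traj, Trbv or Trbj segment, so it tests nothing there. The Trbv ratio was not computed without the Trbv13 family, whose counts exceeded the lead of the distal set in replicates 1 and 2. The counting noise test called 1 member with the filter (59.6% of all genes tested) and 18 of 175 without it (35.7%), and 1 to 3 when 1 library was left out (25.6% to 47.3%). The dispersion trend test called 0 members under each alternative, against 0.231% of genes without the filter, where 6 members had an unadjusted p under 0.05, and 0.0296% to 0.217% with 1 library left out. No paired analysis was possible because there is 1 group. The highest count of a J or D segment in a library was 18, which limits what can be said of single segments.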
